A study of Rattus norvegicus with 10 samples.

Results

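The genes described here are 36 named genes that mark microglia or carry signals in myeloid cells, grouped as surface receptors, other identity markers, transcription factors, Fc receptors, integrins and leukocyte surface proteins, intracellular signalling proteins, actin regulators and lysosomal proteins. They were chosen by symbol, and 35 of the 36 were found among the 17168 genes of the deposited count table. All 35 passed the filter on low counts and were among the 11682 genes tested. The symbol Fcrls was not found. The samples are left hippocampi of female rats of the TgF344-AD line (genotype Tg-AD), 10 animals dissected at 11 months of age, 5 fed rodent chow with no treatment and 5 fed ibudilast chow from 5 months of age for 6 months. Both groups carry the transgenes, and no rats without them were analysed here, so the values say nothing of how the transgenes themselves change these genes. As background, the line carries human mutant amyloid precursor protein and presenilin genes under a prion promoter, and ibudilast blocks a range of cyclic nucleotide phosphodiesterases as well as the cytokine MIF and TLR4 signalling.

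Microglia are the resident macrophages of the brain. Their survival depends on signalling through the receptor CSF1R, and their identity on transcription factors such as PU.1, encoded by Spi1, and SALL1. In the undisturbed brain they express receptors that sense nucleotides and fractalkine, and several of these genes are known to fall when microglia become activated around amyloid plaques. The Fc receptors, integrins, kinases and actin regulators among the genes are shared with other myeloid cells. Some, such as Rgs10 and Coro1a, are also expressed by neurons.

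Untreated libraries held 6960066 to 8204390 estimated counts each and ibudilast libraries 7553804 to 10121571. Each title carries a different animal tag, so the libraries are taken as separate rats. Markers of other tissue stood apart in 4 libraries: summed cerebellar markers reached 4924 CPM in ibudilast 3, meningeal fibroblast markers 1371 and 1535 CPM in ibudilast 3 and ibudilast 5, and choroid plexus markers 2644 CPM in untreated 1. Pituitary markers had lower sums, with ibudilast 1 at 59.1 CPM, ibudilast 3 at 32.0 CPM and at most 7.45 CPM in the other 8 libraries. CPM are counts scaled to the total of their library, corrected with TMM factors, which align libraries on the bulk of their genes.

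Most of these genes were lower in the ibudilast libraries. Of 35 tested genes 25 fell, or 71.4%, and 0 rose (edgeR's quasi-likelihood test, p adjusted after Benjamini and Hochberg across 11682 genes, threshold 0.05), where 18.5% of all tested genes fell and 20.0% rose. At an unadjusted p under 0.05 in edgeR, 25 of the 35 were lower, and Runx1 and Inpp5d were higher. At that looser threshold 5745 of the 11682 tested genes passed, in either direction. DESeq2 gave 25 lower, and Runx1 and Inpp5d higher (adjusted p = 0.0372 and 0.0253), where it called 20.5% of all tested genes lower and 22.1% higher. The median log2 fold change was -0.78, against 0.0071 over all tested genes. In 13 of the 35 the highest ibudilast library lay below the lowest untreated library, as it did in 11.7% of all tested genes. The libraries are of whole tissue, in which fewer microglia and less RNA per microglial cell cannot be told apart. Without ibudilast 3, ibudilast 5 and untreated 1, 17 of the 35 fell and 2 rose, with a median of -0.68, where 11.6% of all tested genes fell and 15.0% rose; that fit kept ibudilast 1. Without ibudilast 1 alone, 25 fell, now with Irf8 and not Fcgr2b, and 2 rose, where 19.4% and 20.8% of all tested genes did.

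**Figure D1:**
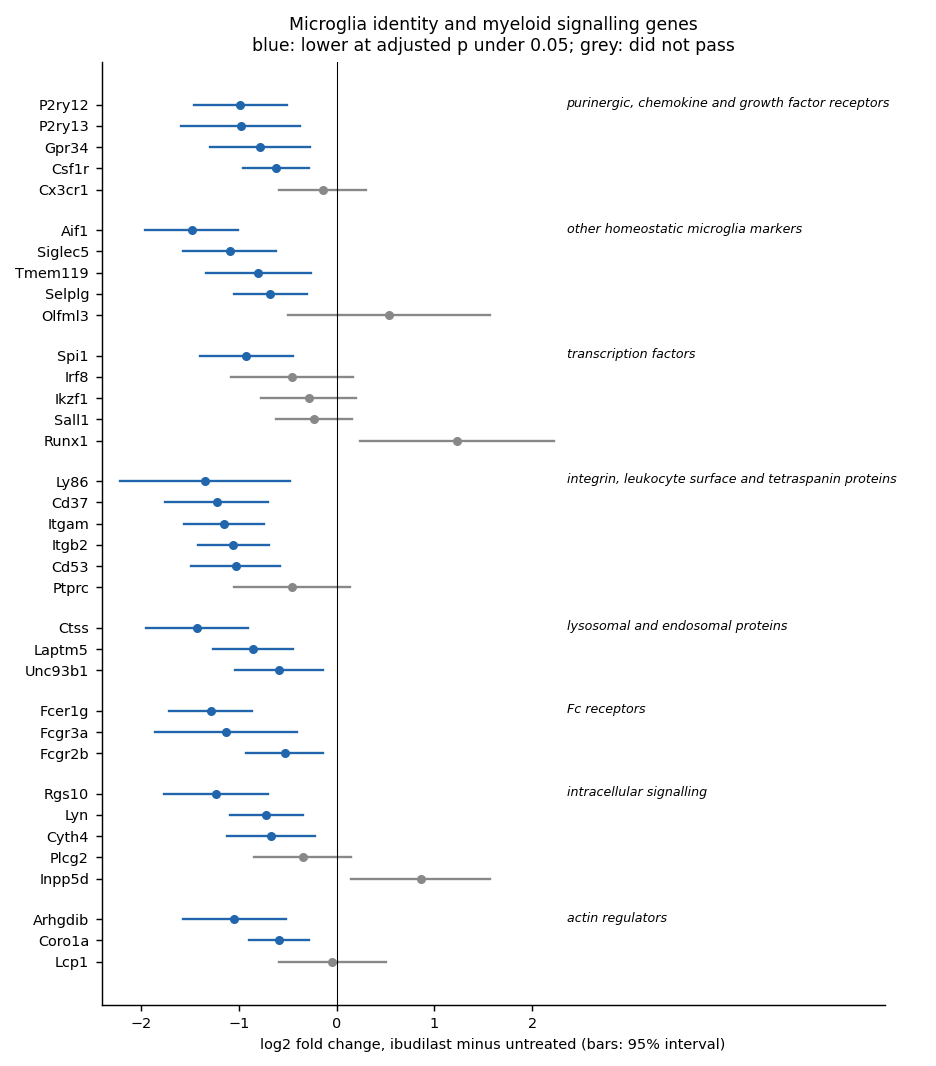
Log2 fold change (ibudilast minus untreated, x axis) of each of the 35 tested genes, grouped by role, with its 95% interval from edgeR as a bar. The 25 blue genes fell, the 10 grey genes did not pass, and Runx1 and Inpp5d are the only 2 grey genes whose unadjusted interval lies wholly above 0.

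Of the 5 receptor genes 4 fell, and the fractalkine receptor gene Cx3cr1 did not pass. For this and every other role, of 3 to 6 tested genes each, the share over all tested genes was 18.5% lower. Differences between roles were not tested. P2ry12, which encodes the ADP receptor that steers microglial processes towards injury, stood at 25.2, 35.4, 28.3, 25.6 and 20.7 CPM in untreated 1 to 5 and 19.3, 12.4, 7.88, 14.7 and 14.2 CPM in ibudilast 1 to 5. Every ibudilast library was below every untreated one. The mean went from 27.0 ± 5.40 to 13.7 ± 4.12 CPM (SD, n = 5 each; fitted log2 fold change -0.98 ± 0.22, SE; edgeR adjusted p = 0.00559). Csf1r, the receptor gene for the growth factors CSF1 and IL-34, stood at 122, 168, 152, 145 and 122 CPM in untreated 1 to 5 and 124, 84.8, 70.5, 82.3 and 99.2 CPM in ibudilast 1 to 5. Only ibudilast 1 reached into the untreated range, and the fitted log2 change was -0.62 ± 0.15 (SE; edgeR adjusted p = 0.00932). The neighbouring nucleotide receptor gene P2ry13 fell by 0.98 and the lysophosphatidylserine receptor gene Gpr34 by 0.78 on the log2 scale. Gpr34 missed the threshold without untreated 2 (-0.68) or untreated 3 (-0.69), each left out alone, with the log2 fold change that remained in brackets here and for the genes that follow.

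Cx3cr1 stood at 28.4, 37.9, 37.0, 24.6 and 33.1 CPM in untreated 1 to 5 and 37.4, 30.3, 16.4, 33.1 and 29.0 CPM in ibudilast 1 to 5. Apart from ibudilast 3, all ibudilast values lay within the untreated range. Its log2 fold change was -0.14 (95% interval -0.58 to 0.30; edgeR adjusted p = 0.600), or 0.016 without ibudilast 3.

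Among the other identity markers 4 of 5 fell. Aif1, which encodes the actin-bundling protein IBA1 used to stain microglia, had the largest fall of all 35 genes in the fit with all libraries, from 36.4 ± 11.1 to 13.1 ± 2.63 CPM (SD, n = 5 each; log2 fold change -1.48 ± 0.22, SE; edgeR adjusted p = 0.00114). Its values were 46.5, 49.3, 32.5, 30.7 and 23.0 CPM in untreated 1 to 5 and 17.7, 11.9, 11.4, 12.3 and 11.9 CPM in ibudilast 1 to 5. The groups did not overlap, and 4 of the ibudilast libraries lay close together below ibudilast 1. Siglec5, which encodes a sialic acid binding lectin, stood at 10.6, 15.9, 12.99, 11.3 and 7.31 CPM in untreated 1 to 5 and 7.30, 5.53, 4.84, 4.69 and 4.93 CPM in ibudilast 1 to 5. Ibudilast 1 and untreated 5 nearly met, with no overlap, and the fitted log2 change was -1.09 ± 0.21 (SE; edgeR adjusted p = 0.00342). The transmembrane marker gene Tmem119 fell by 0.80 and Selplg, which encodes the selectin ligand PSGL, by 0.68 on the log2 scale. Tmem119 missed the threshold without untreated 2 (-0.78), untreated 3 (-0.68), ibudilast 2 (-0.76) or ibudilast 4 (-0.75). The row Fcrl2, for which RefSeq lists Fcrls as another symbol, was not counted among the 35 and went from 45.8 ± 6.25 to 24.4 ± 5.45 CPM (log2 fold change -0.91 ± 0.16, SE; edgeR adjusted p = 0.00197).

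Olfml3, which encodes a secreted matrix protein, was the exception. It stood at 4.12, 5.63, 5.33, 4.56 and 4.0 CPM in untreated 1 to 5 and 3.78, 3.52, 11.5, 1.88 and 13.5 CPM in ibudilast 1 to 5. The 2 high libraries, ibudilast 3 and ibudilast 5, are those in which meningeal fibroblast markers stood apart, and the other 3 ibudilast libraries lay below every untreated library. With all libraries the log2 fold change was 0.54 (95% interval -0.50 to 1.57; edgeR adjusted p = 0.384). Without ibudilast 3, ibudilast 5 and untreated 1 it was -0.68 and did not pass (edgeR adjusted p = 0.107). Whether meningeal tissue contributed to the Olfml3 counts was not tested.

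**Figure D2:**
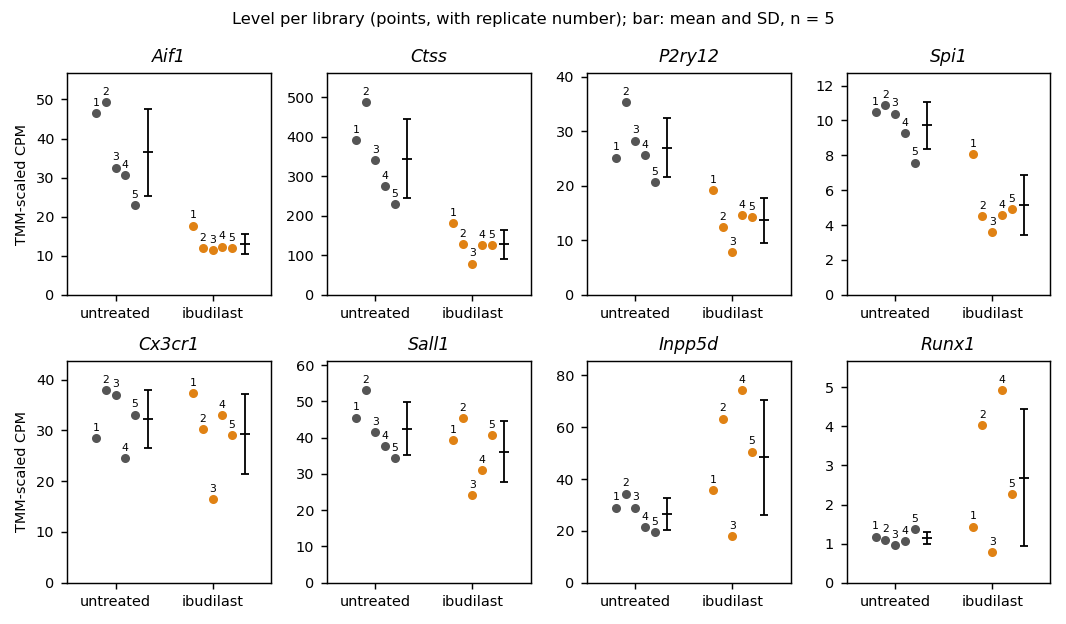
TMM-scaled CPM (y axis) of 8 genes in each library, with the replicate number beside each point and the mean and SD of each group (n = 5) as a bar. Aif1, Ctss and P2ry12 do not overlap between the groups, Cx3cr1 and Sall1 overlap, and Inpp5d and Runx1 are above all untreated libraries in 4 ibudilast libraries and below them in ibudilast 3.

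Of the 5 transcription factor genes Spi1 fell and 4 did not pass. That is 20% lower, near the 18.5% over all tested genes, so the count shows nothing particular to this group. Spi1, which encodes PU.1, the factor that commits cells to the myeloid lineage, stood at 10.5, 10.9, 10.4, 9.26 and 7.59 CPM in untreated 1 to 5 and 8.08, 4.52, 3.60, 4.57 and 4.93 CPM in ibudilast 1 to 5. Only ibudilast 1 reached the untreated range, above untreated 5, and the mean went from 9.72 ± 1.34 to 5.14 ± 1.71 CPM (SD, n = 5 each; log2 fold change -0.92 ± 0.22, SE; edgeR adjusted p = 0.00729). Sall1, which encodes a factor that holds microglia in their homeostatic state, stood at 45.5, 53.1, 41.4, 37.6 and 34.3 CPM in untreated 1 to 5 and 39.3, 45.5, 24.1, 31.1 and 40.8 CPM in ibudilast 1 to 5. The groups overlapped, with ibudilast 3 lowest, and the log2 fold change was -0.23 (95% interval -0.62 to 0.16; edgeR adjusted p = 0.318).

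Irf8, which encodes a partner of PU.1 on DNA, stood at 7.95, 9.06, 6.43, 4.83 and 4.97 CPM in untreated 1 to 5 and 8.34, 4.40, 4.17, 4.34 and 3.13 CPM in ibudilast 1 to 5. Ibudilast 1 was as high as the higher untreated libraries, while the other 4 ibudilast libraries lay below all of the untreated ones. The log2 fold change was -0.46 (95% interval -1.08 to 0.17; edgeR adjusted p = 0.219), and without ibudilast 1 Irf8 fell, by 0.73 on the log2 scale (edgeR adjusted p = 0.0320). Ikzf1, which encodes the lymphoid and myeloid factor Ikaros, stood at 2.80, 5.26, 3.42, 2.68 and 3.03 CPM in untreated 1 to 5 and 2.87, 2.76, 2.59, 2.70 and 3.22 CPM in ibudilast 1 to 5. Apart from untreated 2, its values lay in a narrow band, and the log2 fold change was -0.28 (95% interval -0.77 to 0.20; edgeR adjusted p = 0.326).

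Runx1, which encodes a factor of blood and microglial development, was higher in most of the ibudilast group. It stood at 1.18, 1.10, 0.957, 1.07 and 1.38 CPM in untreated 1 to 5 and 1.43, 4.02, 0.788, 4.93 and 2.28 CPM in ibudilast 1 to 5. Ibudilast 1, 2, 4 and 5 were above all untreated libraries, ibudilast 1 only by a little, and ibudilast 3 was below all. Only 7 to 42 counts per library lie behind these values. The log2 fold change of 1.23 ± 0.45 (SE) missed the threshold (edgeR adjusted p = 0.0508). It passed without ibudilast 1 (1.38, adjusted p = 0.0346 in edgeR) and without ibudilast 3 (1.47, adjusted p = 0.00862 in edgeR).

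PU.1 binds DNA around the letters GAGGAA, which read TTCCTC on the opposite strand. Upstream sequences, the 250 bases before the annotated start of each gene, were taken from RefSeq on build GRCr8, whereas the counts were made on rn6. Entries were matched for 21 of the 36 genes, and 13 of these, or 61.9%, hold GAGGAA or TTCCTC at least 1 time, against 23.2% of 27457 symbols in the table. Of the 13 genes with an entry that fell, 10 hold a match, and of the 8 that did not pass, 3 do. A match of 6 letters is a description and does not show that PU.1 binds there. The 4 upstream sequences with a match whose genes had the smallest p-values are printed first, followed by that of Inpp5d, which has no match and did not fall. Capitals mark GAGGAA or TTCCTC.
The positions are chr1:192089342-192089591 (plus strand) for Itgam, chr2:185775146-185775395 (plus strand) for Ctss, chr1:102904656-102904905 (plus strand) for Siglec5, chr1:104860785-104861034 (minus strand) for Cd37 and chr9:95735283-95735532 (plus strand) for Inpp5d, all on GRCr8 and printed 5′ to 3′ on the strand of the gene.
Itgam: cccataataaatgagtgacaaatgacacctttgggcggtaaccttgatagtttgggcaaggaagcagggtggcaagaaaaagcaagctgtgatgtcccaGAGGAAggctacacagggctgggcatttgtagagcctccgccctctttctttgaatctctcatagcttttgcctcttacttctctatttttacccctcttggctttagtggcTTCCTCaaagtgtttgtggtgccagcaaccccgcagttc
Ctss: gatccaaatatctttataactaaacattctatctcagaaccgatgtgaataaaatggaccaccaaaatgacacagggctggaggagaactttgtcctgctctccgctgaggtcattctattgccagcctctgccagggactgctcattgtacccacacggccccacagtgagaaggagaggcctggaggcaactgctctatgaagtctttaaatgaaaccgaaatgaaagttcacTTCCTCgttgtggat
Siglec5: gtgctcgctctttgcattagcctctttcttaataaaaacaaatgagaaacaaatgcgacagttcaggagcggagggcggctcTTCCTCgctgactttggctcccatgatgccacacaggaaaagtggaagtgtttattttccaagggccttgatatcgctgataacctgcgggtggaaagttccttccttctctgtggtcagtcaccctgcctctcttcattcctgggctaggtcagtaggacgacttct
Cd37: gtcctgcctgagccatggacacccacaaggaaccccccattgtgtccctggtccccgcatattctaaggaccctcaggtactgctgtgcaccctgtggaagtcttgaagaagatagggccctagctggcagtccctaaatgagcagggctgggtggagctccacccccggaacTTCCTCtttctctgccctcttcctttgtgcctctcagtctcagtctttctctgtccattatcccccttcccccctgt
Inpp5d: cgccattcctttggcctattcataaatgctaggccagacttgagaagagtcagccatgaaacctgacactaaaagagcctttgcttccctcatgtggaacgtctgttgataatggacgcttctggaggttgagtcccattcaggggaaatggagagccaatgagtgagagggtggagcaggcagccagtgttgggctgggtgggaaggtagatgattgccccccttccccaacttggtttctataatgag
In Itgam the letters stand on both strands, with GAGGAA starting 151 and TTCCTC 39 bases before the start, and in Ctss TTCCTC starts 15 bases before it. The matches in Siglec5 and Cd37 start 168 and 77 bases before the start.

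All 3 Fc receptor genes fell. Fcer1g, which encodes the signalling chain shared by activating Fc receptors, stood at 52.3, 63.5, 44.7, 42.0 and 33.2 CPM in untreated 1 to 5 and 23.6, 19.1, 12.95, 21.3 and 19.6 CPM in ibudilast 1 to 5. The groups did not overlap, and the mean went from 47.2 ± 11.4 to 19.3 ± 3.97 CPM (SD, n = 5 each; log2 fold change -1.29 ± 0.19, SE; edgeR adjusted p = 0.00122). Fcgr3a, an activating receptor for IgG, stood at 10.8, 7.22, 3.69, 3.89 and 4.69 CPM in untreated 1 to 5 and 3.91, 3.02, 2.25, 1.88 and 2.75 CPM in ibudilast 1 to 5. Untreated 1 and untreated 2 were highest, ibudilast 1 lay above untreated 3 and untreated 4, and the fitted log2 change was -1.13 ± 0.33 (SE; edgeR adjusted p = 0.0207). Fcgr3a missed the threshold without untreated 1 (-0.83). The Fc gamma receptor genes are close in sequence, so how the authors' counting split reads among them is uncertain. Fcgr2b, the inhibitory receptor for IgG, fell by 0.53 on the log2 scale and missed the threshold without untreated 1 (-0.53), untreated 2 (-0.38), ibudilast 1 (-0.53), ibudilast 2 (-0.53), ibudilast 3 (-0.44) or ibudilast 4 (-0.52).

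Of the 6 genes for integrins and leukocyte surface proteins 5 fell. Itgam and Itgb2 encode the 2 chains of the complement receptor CR3, and both fell. Itgam stood at 32.6, 31.7, 19.5, 26.3 and 18.2 CPM in untreated 1 to 5 and 13.4, 10.8, 9.23, 11.6 and 12.8 CPM in ibudilast 1 to 5, and its fitted log2 change was -1.15 ± 0.19 (SE; edgeR adjusted p = 0.00150). Itgb2 stood at 42.0, 44.5, 36.6, 31.5 and 26.5 CPM in untreated 1 to 5 and 20.7, 19.5, 13.5, 17.7 and 15.8 CPM in ibudilast 1 to 5, and its fitted log2 change was -1.06 ± 0.16 (SE; edgeR adjusted p = 0.00130). For both chains every ibudilast library lay below every untreated one, and ibudilast 3 was lowest.

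The tetraspanin genes Cd53 and Cd37, which encode organisers of leukocyte membranes, fell by 1.03 and 1.23 on the log2 scale, Cd53 without overlap. Ly86 encodes a secreted partner of the toll-like receptor homolog CD180 and fell by 1.34 on the log2 scale, with libraries from 2.05 to 7.47 CPM without treatment and from 1.17 to 3.13 CPM with ibudilast. Ly86 missed the threshold without untreated 1 (-1.20) or untreated 2 (-1.12). Cd180 itself, no member of the set, fell by 1.03 on the log2 scale (edgeR adjusted p = 0.00791). Ptprc, which encodes the leukocyte common antigen CD45, stood at 8.10, 11.0, 4.51, 5.37 and 4.69 CPM in untreated 1 to 5 and 4.30, 4.02, 6.08, 4.22 and 5.88 CPM in ibudilast 1 to 5. The groups overlapped, with untreated 1 and untreated 2 highest, and the log2 fold change was -0.46 (95% interval -1.05 to 0.14; edgeR adjusted p = 0.201). With a trend of fold change on gene span removed, Ptprc was at -0.78 and passed (edgeR adjusted p = 0.0462).

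The 5 intracellular signalling genes divided. Rgs10, which encodes a protein that shortens G-protein signalling, stood at 89.6, 133, 65.3, 111 and 74.1 CPM in untreated 1 to 5 and 58.2, 37.8, 23.8, 41.1 and 40.9 CPM in ibudilast 1 to 5. The groups did not overlap, untreated 2 was highest and ibudilast 3 lowest, and the fitted log2 change was -1.23 ± 0.24 (SE; edgeR adjusted p = 0.00345). Lyn, a Src family kinase gene downstream of Fc receptors, stood at 21.1, 27.8, 26.8, 17.2 and 19.0 CPM in untreated 1 to 5 and 18.0, 11.3, 13.7, 12.3 and 12.8 CPM in ibudilast 1 to 5. Ibudilast 1 alone reached the untreated range, and Lyn fell by 0.72 on the log2 scale (edgeR adjusted p = 0.00822). Cyth4, which encodes an exchange factor for ARF proteins, fell by 0.67 and missed the threshold without untreated 1 (-0.62), untreated 2 (-0.55), ibudilast 2 (-0.60) or ibudilast 4 (-0.66).

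Inpp5d and Plcg2, both genes in which variants are associated with Alzheimer disease risk, did not pass with all libraries and no correction. Plcg2, which encodes a phospholipase that relays TREM2 and Fc receptor signals, stood at 7.51, 8.08, 5.19, 8.19 and 4.55 CPM in untreated 1 to 5 and 6.12, 4.52, 6.98, 4.81 and 3.98 CPM in ibudilast 1 to 5. The groups overlapped in part: untreated 1, 2 and 4 lay above every ibudilast library, and ibudilast 2 and 5 below every untreated one. The log2 fold change was -0.35 (95% interval -0.84 to 0.15; edgeR adjusted p = 0.244). With a trend of fold change on gene span removed it was -0.70 and passed (edgeR adjusted p = 0.0359). Inpp5d, which encodes the inositol phosphatase SHIP that restrains these signals, stood at 29.0, 34.4, 29.0, 21.3 and 19.4 CPM in untreated 1 to 5 and 35.7, 63.3, 17.9, 74.4 and 50.6 CPM in ibudilast 1 to 5. As for Runx1, ibudilast 1, 2, 4 and 5 were above all untreated libraries and ibudilast 3 was below all. The log2 fold change of 0.86 ± 0.32 (SE) missed the threshold (edgeR adjusted p = 0.0549). It passed without ibudilast 1 (0.95, adjusted p = 0.0480 in edgeR) and without ibudilast 3 (1.08, adjusted p = 0.00354 in edgeR).

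The libraries in which Inpp5d and Runx1 were high are those with the highest score of neocortical markers. This score, the mean z-score of their log2 CPM, was 0.64 in ibudilast 4, 0.47 in ibudilast 2, 0.25 in ibudilast 5, 0.18 in ibudilast 1 and -0.55 in ibudilast 3, the same order as Inpp5d and Runx1 in these 5 libraries. In the untreated libraries the score ran from -0.31 to -0.053. Among them untreated 5 had the highest score, the lowest Inpp5d and the highest Runx1. The order held there for neither gene. Runx1 stood at 1.10 CPM in untreated 2 (score -0.11) and at 1.18 CPM in untreated 1 (score -0.24). Of 15 tested markers in the list 6 rose (40%) and 2 fell (13.3%), where 20.0% and 18.5% of all tested genes did without a covariate. The summed level of these markers was 1186 to 1505 CPM without treatment and from 1199 to 1512 CPM with ibudilast. With the score as a covariate the log2 fold change was 0.042 for Inpp5d and 0.066 for Runx1. That of Aif1 was -1.50 and that of Cx3cr1 -0.51 (edgeR adjusted p = 0.0528). In the same fit 22 of the 35 genes fell and 0 rose, where 17.2% and 19.8% of all tested genes did, and the median was -0.93. In 4 of the 5 ibudilast libraries the score lay above all untreated libraries, so the covariate and the treatment are partly the same variable.

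**Figure D3:**
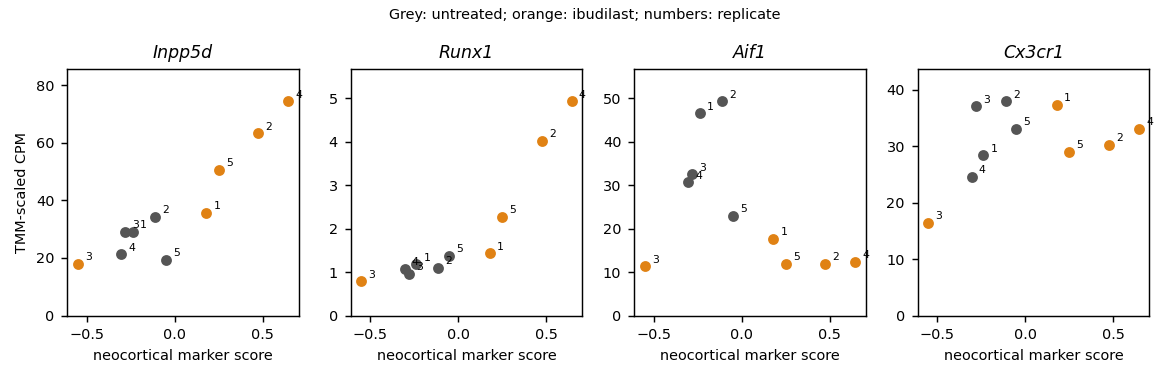
TMM-scaled CPM (y axis) of Inpp5d, Runx1, Aif1 and Cx3cr1 in each library against the neocortical marker score (x axis, mean z-score of log2 CPM), untreated in grey and ibudilast in orange with replicate numbers. Inpp5d and Runx1 are highest in ibudilast 4 and ibudilast 2, the 2 libraries of highest score, whereas Aif1 is low in ibudilast libraries at both ends of the score.

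Of the 3 actin regulator genes 2 fell. Arhgdib, which encodes an inhibitor of small GTPase cycling in blood cells, stood at 33.4, 33.9, 22.0, 19.9 and 15.7 CPM in untreated 1 to 5 and 14.1, 8.92, 12.3, 9.50 and 15.6 CPM in ibudilast 1 to 5. The lowest untreated and the highest ibudilast library nearly met, and the fitted log2 change was -1.05 ± 0.24 (SE; edgeR adjusted p = 0.00678). Coro1a, which encodes the actin-binding protein coronin, stood at 175, 154, 157, 136 and 135 CPM in untreated 1 to 5 and 127, 101, 71.7, 107 and 97.2 CPM in ibudilast 1 to 5. The groups did not overlap, with a fitted log2 change of -0.59 ± 0.14 (SE; edgeR adjusted p = 0.00779). Lcp1, the gene for the actin bundler L-plastin, stood at 26.2, 39.3, 31.7, 24.6 and 27.6 CPM in untreated 1 to 5 and 40.1, 21.6, 23.9, 17.0 and 42.3 CPM in ibudilast 1 to 5. Ibudilast 1 and ibudilast 5 were the highest of all 10 libraries and ibudilast 4 the lowest, and the log2 fold change was -0.043 (95% interval -0.59 to 0.51; edgeR adjusted p = 0.906).

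All 3 lysosomal and endosomal genes fell. Ctss, which encodes the protease cathepsin S that processes antigens, stood at 392, 487, 340.0, 275 and 229 CPM in untreated 1 to 5 and 182, 128, 79.1, 127 and 126 CPM in ibudilast 1 to 5. The groups did not overlap, and the mean went from 345 ± 101 to 128 ± 36.5 CPM (SD, n = 5 each; log2 fold change -1.43 ± 0.24, SE; edgeR adjusted p = 0.00166). Laptm5, which encodes a lysosomal membrane protein of leukocytes, stood at 64.2, 81.8, 61.0, 52.3 and 47.3 CPM in untreated 1 to 5 and 47.8, 29.7, 26.0, 30.0 and 35.9 CPM in ibudilast 1 to 5. Ibudilast 1 just exceeded untreated 5, and the fitted log2 change was -0.86 ± 0.19 (SE; edgeR adjusted p = 0.00523). Unc93b1, which encodes the chaperone that brings nucleic acid sensing toll-like receptors to endosomes, fell by 0.59 on the log2 scale (edgeR adjusted p = 0.0416). It missed the threshold without any 1 of untreated 1 to 4 (-0.55, -0.44, -0.59 and -0.62) or of ibudilast 2, 4 and 5 (-0.51, -0.55 and -0.60).

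Relative to one another the genes did not move by equal amounts. The log2 level of each gene, centred on its untreated mean, was set against the median of the other 34 in the same library. On this scale Aif1 ran from -0.28 to 0.29 in untreated and -0.82 to -0.48 in ibudilast libraries. Ctss ran from -0.23 to 0.15 in untreated and -0.96 to -0.51 in ibudilast libraries, and Fcer1g from -0.15 to 0.066 in untreated and -0.69 to -0.32 in ibudilast libraries. These 3 genes lay below their untreated range in every ibudilast library, as did 0.188% of all tested genes set against the same median. Sall1 ran from -0.068 to 0.053 in untreated and 0.28 to 1.02 in ibudilast libraries. Inpp5d ran from -0.14 to 0.13 in untreated and 0.61 to 2.29 in ibudilast libraries, and Runx1 from -0.43 to 0.54 in untreated and 0.62 to 2.53 in ibudilast libraries. These 3 were above their untreated range in every ibudilast library, as were 38.1% of all tested genes. Both shares depend on the reference, since the median of the set was itself lower in the ibudilast libraries. They do not show whether 3 genes on either side are many or few. The remaining 29 genes overlapped between the groups on this scale.

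The genes also varied together within groups. Over the 595 pairs of genes, the median Pearson correlation of log2 CPM was 0.72 over all 10 libraries and 0.55 over deviations from the group means, where 531 pairs were above 0. The points share libraries and their scaling. No such correlation was computed for pairs of other genes, so whether it is particular to these was not tested. Ctss and Laptm5 had the highest median correlation with the other genes within groups, at 0.75 and 0.74, and Olfml3 and Runx1 the lowest, at -0.14 and -0.043. The per-library median of the genes, on a log2 scale with the untreated mean of each gene at 0, was 0.12, 0.40, 0.028, -0.15 and -0.33 in untreated 1 to 5 and -0.34, -0.88, -1.14, -0.77 and -0.74 in ibudilast 1 to 5. Untreated 2 was highest and ibudilast 3 lowest, and ibudilast 1 lay next to untreated 5.

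**Figure D4:**
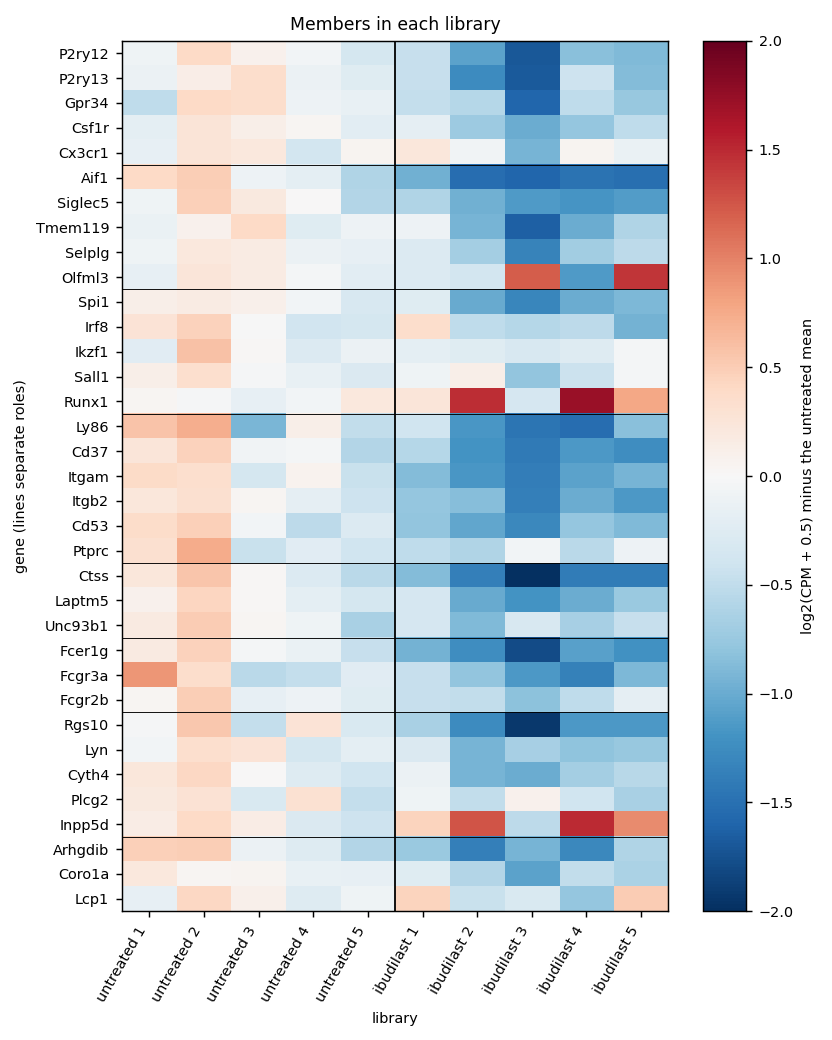
Log2(CPM + 0.5) of each of the 35 genes (rows, separated by role) in each library (columns), minus the untreated mean of the gene. Most rows are blue in all ibudilast libraries and darkest in ibudilast 3. Olfml3, Runx1 and Inpp5d are the deepest red exceptions in some of them. Lcp1 is paler red in ibudilast 1 and ibudilast 5, as are Irf8 and Cx3cr1 in ibudilast 1.

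Microglia-enriched genes outside the set were read from the same fit, in which 18.5% of all tested genes fell and 20.0% rose. Of 27 tested, 20 fell, or 74.1%, and 0 rose, and their median log2 fold change was -0.86. The receptor gene Trem2 and its adaptor gene Tyrobp fell by 1.11 and 1.20 on the log2 scale. Of 36 immunoreceptor signalling genes 13 fell, or 36.1%, and 1, the kinase gene Prkcd, rose. The phosphatase gene Ptpn6 fell by 1.13, whereas the kinase gene Syk had a log2 fold change of -0.34 (edgeR adjusted p = 0.186) and Btk one of -0.22 (edgeR adjusted p = 0.556). Of 19 further transcription factor genes 2 fell and 5 rose, 10.5% lower and 26.3% higher, beside the shares over all tested genes given above. Cebpb and Cebpa, which encode C/EBP factors of myeloid cells, fell by 1.61 and 1.00, while Maf rose by 0.92 on the log2 scale. These lists were chosen with earlier results of the same data known, and several of their genes are expressed by other brain cells.

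Markers of other cells were read against the same shares over all tested genes, 18.5% lower and 20.0% higher. Astrocyte markers fell in 6 of 13 cases (46.2%) and rose in 1, and their summed level was 6414 to 9805 CPM without treatment and from 4366 to 6054 CPM with ibudilast, without overlap. Endothelial and mural markers fell in 6 of 16 cases (37.5%) and rose in 0, at summed levels of 656 to 925 CPM without treatment and from 453 to 905 CPM with ibudilast. Hippocampal field markers fell in 6 of 15 cases (40%) and rose in 1, at 2066 to 3954 CPM without treatment and from 1163 to 2290.5 CPM with ibudilast. The summed level of the 35 microglia and myeloid genes was 1113 to 1836 CPM without treatment and from 571 to 1047 CPM with ibudilast. The part of these other shifts in the fall of the microglia and myeloid genes was not tested. With a score of the hippocampal field markers as a covariate, 12 of the 35 genes fell and 0 rose, with a median of -0.66, where 9.33% of all tested genes fell and 10.2% rose. That score ran from -0.049 to 0.77 in untreated and from -0.67 to 0.38 in ibudilast libraries, so it too is partly the same variable as the treatment. With this score the log2 fold change was 0.65 for Inpp5d and 0.85 for Runx1, and neither passed (edgeR adjusted p = 0.269 and 0.318).

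Markers of border-associated macrophages and of blood cells were low. Of 8 border-associated macrophage genes with a row, 4 were tested and 0 passed edgeR, and their sum was 17.0 to 23.1 CPM without treatment and from 10.8 to 48.4 CPM with ibudilast. It was highest in ibudilast 3 and ibudilast 5, where Mrc1, a mannose receptor gene of these macrophages, stood at 12.3 and 13.5 CPM against at most 2.46 CPM in the other libraries. Blood monocyte and granulocyte markers summed to 6.04 to 18.3 CPM without treatment and from 3.60 to 18.9 CPM with ibudilast, with Elane at 0 counts in all 10 libraries, and of their 12 genes with a row 1 was tested and 0 passed. Lymphocyte markers summed to 10.3 to 26.8 CPM without treatment and from 9.62 to 15.0 CPM with ibudilast, and of 14 genes 2 were tested and 0 passed.

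The titles give each rat a tag number, and the tags fall below 100 or above 200. Among the 6 rats with tags below 100, Runx1 did not pass the filter on low counts. Of the other 34 genes 11 fell and 0 rose, with a median of -0.91, where 6.94% of all tested genes fell and 10.1% rose. Among the 4 with tags above 200, Ctss fell (log2 fold change -0.97) and Inpp5d rose (1.64), and the 35 genes had a median of -0.49, where 1.07% of all tested genes fell and 3.51% rose. The labels do not say what the tag ranges stand for.

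Over all tested genes the log2 fold change climbed with genomic span: the decile with the shortest genes had a median of -0.31 and the decile with the longest one of 0.38. The 35 genes were spread over the deciles, 19 of them in the shorter 5, and the trend at their spans had a median of 0.035. With the trend removed 25 of the 35 fell and 0 rose, but they were not the same genes: Ptprc and Plcg2 passed, and Tmem119 (-0.67) and Unc93b1 (-0.52) did not (edgeR adjusted p = 0.0558 and 0.0700). The median was -0.78, and 19.3% of all tested genes fell and 14.0% rose. Runx1, in the decile of longest genes, then had a log2 fold change of 0.81 and Inpp5d of 0.54, and neither passed (edgeR adjusted p = 0.184 and 0.213).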

How the data were processed

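Left hippocampal RNA of 10 rats was made into strand-specific mRNA libraries, per the labels' protocols. Expected counts per gene symbol were deposited by the authors, and the submitters' processing notes name bcl2fastq 2.17, Bowtie2 2.1.0, RSEM 1.2.15, edgeR and build rn6 (annotation and strand setting: not given in the sources used here). A second deposited table, used as a check and in limma-trend, holds normalized signal of the authors, and 99.96% of its non-zero values lay within 2% of TMM-scaled CPM recomputed from the counts. Some symbols had been turned into dates, none of them a member.

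Rounded expected counts went into edgeR 4.0.16 under R 4.3.3, with filterByExpr, TMM factors and a quasi-likelihood fit of group alone, and p was adjusted over 11682 genes (Benjamini-Hochberg, 0.05). The same procedure was also run on counts simulated with the mean levels and dispersions of the finished fit. That run does not show how well the model holds for the real libraries. Standard errors were derived from the test statistic, and 95% intervals are unadjusted. Alternatives used DESeq2 1.42.0, limma 3.58.1, other factors, filters, covariates and sets of libraries.

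Members, lists and alternatives were chosen with earlier results of these data known. Values per library are given for the 2 genes of smallest p that fell in each role and for every gene that missed the threshold. Genes from further lists, and Fcrl2, were partly picked after their values were seen. Upstream sequences and gene spans are from RefSeq (GRCr8).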

Additional observations from a re-analysis of the deposited data

Results flagged for a closer look

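Single libraries stood away from the other 4 of their group in 4 of the 70 sets of 5 values checked, by a gap of over 0.71 of the range of the group (Dixon's critical value). Chance gives about 1 in 20, and 4 of 70 is near that share. The first 3 below are all in ibudilast 1, so they are not separate observations. Aif1 stood at 17.7 CPM in ibudilast 1, the highest of the ibudilast group, where the nearest library was at 12.3 CPM. Cd37 stood at 5.86 CPM in ibudilast 1, the highest of the ibudilast group, where the nearest library was at 3.75 CPM. Irf8 stood at 8.34 CPM in ibudilast 1, the highest of the ibudilast group, where the nearest library was at 4.40 CPM. Ikzf1 stood at 5.26 CPM in untreated 2, the highest of the untreated group, where the nearest library was at 3.42 CPM. In each of the first 3, the other 4 ibudilast libraries lay below every untreated library. Ibudilast 1 also had the highest per-library median of the 35 genes within its group and the highest sum of pituitary markers of all libraries, 59.1 CPM, whose part in these values was not tested.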

How the results depend on the processing

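Of the 25 genes that fell with all libraries, 18 also fell in each of the 10 fits without 1 library. The matching share over all genes was not computed, so whether 18 of 25 is many or few was not tested. Over those 10 fits 19 to 25 of the 35 genes fell, 0 to 2 rose, and the median ran from -0.85 to -0.63; over all genes 1615 to 2284 fell and 1843 to 2573 rose. RLE and upper-quartile factors, both other filters, and DESeq2 each gave 25 lower, and limma-voom and limma-trend 24. Over all genes 2164 fell and 2331 rose with RLE factors, and 2521 and 2080 with upper-quartile factors. Without a filter on low counts 2046 fell and 2274 rose, and with a filter at 1 CPM in 5 libraries 2168 and 2341. DESeq2 called 2398 lower and 2576 higher, limma-voom 2158 and 2226, and limma-trend 2181 and 2262. Removal of the span trend also gave 25 of the 35 genes lower, with Ptprc and Plcg2 in place of Tmem119 and Unc93b1. The counts of higher genes moved from 0 to 2 with DESeq2 (Runx1 and Inpp5d), to 2 without ibudilast 3, ibudilast 5 and untreated 1 (the same 2 genes), and to 1 among tags above 200. Among tags below 100, 11 of 34 genes fell (Runx1 was not tested), and 815 of all genes fell and 1182 rose. Among tags above 200, with 2 libraries a group, 1 fell with a median of -0.49, and 126 of all genes fell and 414 rose. Without the 3 libraries, 1357 of all genes fell. With the hippocampal score 12 of the 35 fell, and 1090 of all genes fell and 1195 rose. The causes of these shifts were not tested; sets with fewer libraries also have fewer residual degrees of freedom.

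Changes of sign were seen only in genes that did not pass. Lcp1 was 0.23 among tags above 200, 0.011 and 0.21 with the neocortical and hippocampal scores, and ran from -0.22 to 0.098 without 1 library, above 0 without untreated 2 (0.075), ibudilast 2 (0.044), ibudilast 3 (0.034) or ibudilast 4 (0.098). Cx3cr1 was 0.13 among tags above 200, 0.014 without the 3 libraries and ran from -0.25 to 0.016 without 1 library, above 0 without ibudilast 3. Among tags above 200 Sall1 was 0.031, Ptprc 0.042 and Ikzf1 0.083, and Olfml3 was -0.68 without the 3 libraries.

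With the replicate number as a block, 20 of the 35 genes fell, 0 rose, and the median was -0.79; of all genes 1661 fell and 1874 rose. Deviations of same-numbered libraries from their group means had correlations from -0.13 to 0.021. No untreated library correlated best with its own number, so these values show no pairing by number. Whether same-numbered libraries were handled together was not tested.

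Counts per library limit the rarer genes: Runx1 had 7 to 42 counts, Ly86 10 to 61 and Ikzf1 19 to 43.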

Other observations

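Of 12 tested genes for ligands and niche signals that reach microglia from other cells, 1 rose and 1 fell, each 8.33%, below the 20.0% and 18.5% over all tested genes; that difference was not tested. Cd47, which encodes a surface signal that restrains phagocytosis, rose by 0.76 on the log2 scale (edgeR adjusted p = 0.00277), and Tgfb3, a transforming growth factor gene, fell by 1.01 (edgeR adjusted p = 0.0306). The median of the 12 was -0.11. The CSF1R ligand genes Csf1 and Il34 stood at 38.7 ± 2.79 and 53.5 ± 11.9 CPM in untreated and 29.4 ± 6.90 and 47.5 ± 11.9 CPM in ibudilast libraries (SD, n = 5 each), and neither passed (edgeR adjusted p = 0.0641 and 0.505). Cx3cl1, which encodes the ligand of CX3CR1, had a log2 fold change of 0.35 (edgeR adjusted p = 0.314), and Cd200 one of 0.25 (edgeR adjusted p = 0.197).

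Of 14 tested toll-like receptor and adaptor genes 3 fell and 2 rose, 21.4% lower and 14.3% higher, near the 18.5% and 20.0% over all tested genes, so the counts show nothing particular to the list. Cd180, Tlr7 and Tlr2 fell by 1.03, 0.68 and 0.75 on the log2 scale. The receptors Tlr7 and Tlr9 depend on the product of Unc93b1, and Tlr9 had a log2 fold change of 0.31 (edgeR adjusted p = 0.419). Irak3, which encodes a brake on these receptors, rose by 0.65, and Traf6, which encodes a shared adaptor, by 1.04 on the log2 scale. Tlr4, whose product ibudilast acts on, had a log2 fold change of 0.35 (edgeR adjusted p = 0.470).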
